A study of Mus musculus with 4 samples.

Results

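The 8 glucocorticoid target genes examined here were Fkbp5, Tsc22d3, Zbtb16, Klf9, Sgk1, Dusp1, Mt1 and Mt2, each found by its symbol in 1 of the 23282 rows deposited for mouse lung. All 8 passed a filter of a mean normalized read count of at least 4 over the libraries, as did 15164 rows in all. Lung RNA from male CDF1 mice was read in 4 libraries, 1 per group. The normal control group, E(-)T(-), had neither exercise nor tumor, and the normal exercise group, E(+)T(-), had run on a treadmill at high intensity. The cancer control group, E(-)T(+), had received CT26 cells and did not run, and the cancer exercise group, E(+)T(+), had both. Where 4 values are listed without names, they follow this order of groups. CT26 is a murine colorectal carcinoma line, and the cells were given through the tail vein, from which they seed the lungs. The labels put the mice at postnatal day 28, with 10 mice in each group. The study gives that age for the purchase of the mice and took tissues at the end of the experiment that followed. The mice were therefore older at sampling. For muscle the study used a representative mouse per group, and it describes a similar analysis of the lungs without saying whether a lung library came from a single mouse or from a pool. There are no replicates, so no difference below has a test or a replicate check, and a difference between libraries may be one between animals.

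Glucocorticoids are adrenal steroid hormones that rise with stress, hard exercise and illness. They bind the glucocorticoid receptor, the product of Nr3c1, which moves to the nucleus and binds DNA at glucocorticoid response elements or acts through other transcription factors. Lung epithelium, vessels and leukocytes all carry the receptor, and its target genes include brakes on the receptor itself, brakes on inflammatory signaling, ion transport regulators and the metal-binding metallothioneins. Each of these genes also answers to other signals, such as zinc and cytokines for Mt1 and Mt2 and mitogens and stress kinases for Dusp1.

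The 250 bases before the transcription start are shown for 4 members whose windows hold a response element for a hormone, metal or kinase signal (RefSeq, GRCm38.p6, 5′ to 3′ on the strand of the gene). Capitals mark exact matches to the element named for each window. A promoter was listed for 7 members, with 6 entries for Sgk1 and 3 for Tsc22d3. The Sgk1 window chr10:21993640-21993889 (+ strand) is shown because it holds the full palindrome of the glucocorticoid response element, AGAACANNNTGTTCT, at positions -189 to -175 from the start. The Mt2 window chr8:94172368-94172617 (+) and the Mt1 window chr8:94178839-94179088 (+) are shown for their metal response elements, TGCACNC or TGCGCNC. The Dusp1 window chr17:26508473-26508722 (- strand) is shown for a cyclic AMP response element, TGACGTCA, at -143 to -136.
Sgk1: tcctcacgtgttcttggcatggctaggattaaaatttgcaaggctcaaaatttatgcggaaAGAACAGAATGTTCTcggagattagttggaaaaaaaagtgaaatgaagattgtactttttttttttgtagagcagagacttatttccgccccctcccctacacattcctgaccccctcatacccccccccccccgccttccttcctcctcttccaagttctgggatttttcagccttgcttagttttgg
Mt2: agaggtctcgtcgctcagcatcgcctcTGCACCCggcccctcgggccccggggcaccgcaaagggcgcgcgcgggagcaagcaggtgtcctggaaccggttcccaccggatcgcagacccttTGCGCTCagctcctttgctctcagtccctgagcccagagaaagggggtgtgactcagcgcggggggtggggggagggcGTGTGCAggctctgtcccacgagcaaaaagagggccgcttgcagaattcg
Mt1: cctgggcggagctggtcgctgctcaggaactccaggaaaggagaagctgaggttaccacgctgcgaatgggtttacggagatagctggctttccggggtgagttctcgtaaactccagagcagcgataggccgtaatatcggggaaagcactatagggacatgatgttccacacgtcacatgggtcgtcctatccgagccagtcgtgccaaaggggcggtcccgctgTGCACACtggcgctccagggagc
Dusp1: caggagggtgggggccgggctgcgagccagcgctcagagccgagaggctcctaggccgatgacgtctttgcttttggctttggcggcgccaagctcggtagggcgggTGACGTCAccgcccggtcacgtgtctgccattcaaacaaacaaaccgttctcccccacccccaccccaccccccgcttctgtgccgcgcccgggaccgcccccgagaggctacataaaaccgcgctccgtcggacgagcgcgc

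Both strands were searched in all 32851 promoter windows of the table. The full response element was found in 3 windows (0.00913%), and among the members only in this Sgk1 window, where it overlapped a match to the heat shock element GAANNTTC at -183 to -176. The single arm AGAACA, which lies inside the full element, was held by 16.1% of windows, and among the members by 3 Sgk1 windows and by Tsc22d3 at -185 to -180. Mt2 held 3 metal response elements, at -223, -128 and, on the opposite strand, -50, and 1.26% of windows held 3 or more. Mt1 held 1 such element, at -23, as 21.4% of windows held at least 1. GENCODE also places Mt1 transcript starts at positions 94179211 and 94179241 of chromosome 8, and Mt2 starts at 94172664 and 94172860. All lie past the end of the printed windows, and the full windows run to 94172667 for Mt2 and 94179138 for Mt1. The sequence before these starts was therefore not searched in full. The cyclic AMP response element of Dusp1 was held by 1.55% of windows, and the E-box CACGTG, found once each in Dusp1, Fkbp5 and the printed Sgk1 window, by 6.02%. The heat shock element was in 6.69% of windows and the TATA box TATAAA in 12.4%, the latter in 2 other Sgk1 windows. A match describes letters in this window and does not show binding, and many receptor sites lie far from promoters.

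Read depth was 13017336 in normal control, 12780334 in normal exercise, 9354598 in cancer control and 13368061 in cancer exercise, counted as whole reads recovered from the deposited values. A floor of 3 reads corresponds to between 2.55 and 3.51 normalized counts, far under every value of the members. The lung label held in each library, with the surfactant gene Sftpc at 12347 to 141162 normalized counts, but libraries stood apart in cell markers. The alveolar epithelial list summed to 239861, 288278, 36677 and 194478 normalized counts in the 4 libraries, and 12 of its 13 genes were 2-fold or more lower in cancer control than in normal control. All 11 endothelial genes were lower in the same way. Hemoglobin genes took 14.3%, 14.2%, 1.43% and 31.4% of the reads in the same order. Neutrophil markers summed to 3945, 12204, 11364 and 208193, and dividing-cell markers to 830, 1204, 12527 and 4449. In bulk tissue, fewer cells of a type and less RNA per cell cannot be told apart.

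The normal exercise library also held reads of genes that normal control lung lacked. There were 9 genes with 0 reads in normal control and 500 or more normalized counts in cancer control, among them Krt20, an epithelial keratin, and Crabp1, a retinoic acid binding protein. In normal exercise, whose mice had no tumor, these genes stood at 0.642% to 2.18% of their cancer control level, with a median of 1.47%. In cancer exercise they stood at 3.89% to 28.5%. The source of these reads in normal exercise was not tested. As an alternative chosen after seeing the data, a 1.47% share of the cancer control level was taken out of normal exercise for the members and the gene lists, and its values are given below.

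**Figure D1:**
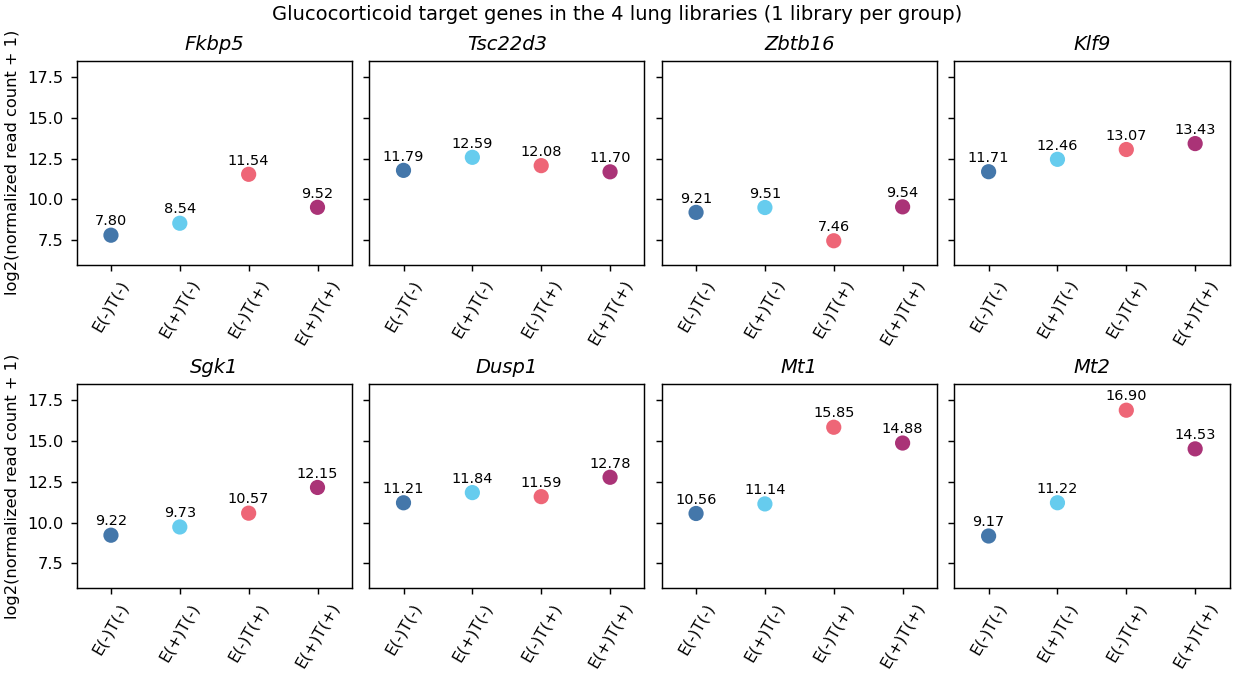
Level of each of the 8 genes in the 4 libraries, as deposited log2(normalized read count + 1), 1 point per library. Mt1, Mt2 and Fkbp5 stand highest in E(-)T(+), Sgk1, Dusp1 and Klf9 in E(+)T(+), and Zbtb16 is lowest in E(-)T(+).

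The feedback gene Fkbp5 encodes a co-chaperone that lowers the affinity of the glucocorticoid receptor for its hormone, and its transcription is a widely used readout of receptor activity. Fkbp5 (chr17:28399094-28517527, - strand, GRCm38, as for the other gene positions) stood at 222.5 normalized counts in normal control, 371.0 in normal exercise, 2987 in cancer control and 732.2 in cancer exercise. Cancer control was highest and normal control lowest. Cancer control exceeded normal control 13.4-fold, a log2 difference of 3.74 (95% exact counting interval 3.56 to 3.93), and with exercise the tumor difference was 0.98 (0.80 to 1.16). Exercised tumor-bearing lung held 24.5% of the resting tumor level, a difference of -2.03 (-2.16 to -1.90). Without tumor, exercised lung was higher by 0.74 (0.51 to 0.97), and by 0.55 with the cancer control share taken out. The intervals here and below cover counting error only and treat reads as independent. Reads copied by PCR are not independent molecules, so the intervals may be too narrow even for that.

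The genes with the profile nearest to Fkbp5 over the 4 libraries were Ckap2l, a spindle protein, and Ncapd2, a condensin subunit, at Euclidean distances of 0.230 and 0.238 between mean-centred log2 values. Both serve cell division. At a floor of 200 the nearest were Ncapd2 and Ptges, a prostaglandin E synthase, at 0.252. Ncapd2 stood at 63.6, 101.9, 729.6 and 223.4 normalized counts in the 4 libraries. All 12 dividing-cell markers were 2-fold or more higher in cancer control than in normal control, and all 12 were lower in cancer exercise than in cancer control, 10 of them 2-fold or more. The part of dividing cells in the level of Fkbp5 was not tested.

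Tsc22d3 encodes GILZ, a leucine zipper protein that binds and restrains inflammatory transcription factors. It moved least of the 8 genes. Tsc22d3 (chrX:140539528-140600659, -) stood at 3533 in normal control, 6160 in normal exercise, 4320 in cancer control and 3321 in cancer exercise, a 1.85-fold range. The exercised tumor-free lung was highest, and no comparison reached 2-fold. Exercise without tumor gave 0.80 (0.75 to 0.86) and exercise with tumor -0.38 (-0.45 to -0.31). The tumor differences were 0.29 (0.23 to 0.35) without exercise and -0.89 (-0.95 to -0.83) with it. With library totals as the only scaling, the last of these was -1.30, past 2-fold, while the median over all genes shifted to -0.41. The exercise difference with tumor was then -0.99, beside a median over all genes of -0.59.

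Zbtb16 encodes PLZF, a zinc finger repressor that glucocorticoids raise strongly in many tissues. It was lowest where Fkbp5 was highest. Zbtb16 (chr9:48654297-48836222, -) stood at 589.6 in normal control, 725.6 in normal exercise, 175.4 in cancer control and 746.0 in cancer exercise. The resting tumor library alone was low, 3.35-fold under normal control, at a log2 difference of -1.74 (-2.01 to -1.50). Exercised tumor-bearing lung exceeded resting tumor-bearing lung 4.23-fold, at 2.08 (1.84 to 2.35). Against normal exercise the difference of cancer exercise was 0.04 (-0.11 to 0.19), an interval that spans 0, and its sign turned with library totals alone (-0.37) and with totals without hemoglobin (-0.05). Exercise without tumor gave 0.30 (0.15 to 0.45).

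Nearest to Zbtb16 were Cxcr4, a chemokine receptor, and Lpin2, a phosphatidate phosphatase, at distances of 0.055 and 0.061. Cxcr4 stood at 352.6, 439.2, 109.7 and 464.0 in the 4 libraries. The sums of the endothelial list, 44662, 46225, 5100 and 37422 in the same order, were likewise lowest in cancer control. The part of cell makeup in the low Zbtb16 level was not tested.

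Klf9 encodes a zinc finger transcription factor that is a direct target of the receptor and feeds back on other targets. Klf9 (chr19:23141226-23168134, +) stood at 3338 in normal control, 5653 in normal exercise, 8586 in cancer control and 11051 in cancer exercise. Normal control was lowest and the library with both exercise and tumor highest. The tumor difference was 1.36 (1.31 to 1.42) without exercise and 0.97 (0.92 to 1.01) with it. The exercise difference was 0.76 (0.70 to 0.82) without tumor and 0.36 (0.32 to 0.41) with it. The last value became -0.24 with library totals alone, a scaling under which the median over all genes was -0.59. Its nearest genes were Camk2n2 and Psd, at 0.123 and 0.138, both expressed at under 100 normalized counts, and with a floor of 200 the nearest was Cebpd, a transcription factor that glucocorticoids also raise, at 0.182.

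Sgk1 encodes a kinase that keeps sodium channels and other carriers at the cell surface, and it answers to glucocorticoids, mineralocorticoids and osmotic stress. Sgk1 (chr10:21882184-21999903, +) stood at 595.8 in normal control, 847.0 in normal exercise, 1524 in cancer control and 4560 in cancer exercise. Each library exceeded the one before it in this order, and cancer exercise exceeded normal control 7.64-fold. The tumor difference was 1.35 (1.22 to 1.49) without exercise and 2.43 (2.33 to 2.53) with it. The exercise difference was 0.51 (0.36 to 0.65) without tumor and 1.58 (1.49 to 1.67) with it, the latter falling just under 2-fold, at 0.97, with library totals alone.

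Nearest to Sgk1 were Fosl2, a subunit of the AP-1 transcription factor, at 0.111 and Lmnb1, a nuclear lamin, at 0.175. Fosl2 stood at 680.7, 928.9, 1614 and 4704 in the 4 libraries. Of the 11 neutrophil markers, 10 were 2-fold or more higher in cancer exercise than in cancer control and all 11 than in normal exercise. The exception was the granule gene Ltf, at 647.5 normalized counts in cancer exercise against 1709 in cancer control. Another granule gene, Elane, had 0 reads in both tumor-free libraries. The part of neutrophils in the Sgk1 level was not tested.

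Dusp1 encodes a phosphatase that switches off the p38 and JNK kinases and so limits cytokine production. Dusp1 (chr17:26505590-26562128, -) stood at 2374 in normal control, 3662 in normal exercise, 3084 in cancer control and 7037 in cancer exercise. The library with both exercise and tumor was highest and the other three lay within a narrower range. The exercise difference was 0.63 (0.56 to 0.70) without tumor and 1.19 (1.13 to 1.26) with it, and the latter was 0.58 with library totals alone. The tumor difference was 0.38 (0.30 to 0.45) without exercise and 0.94 with it (lower bound 0.88). Nearest were Rfx2, a ciliogenesis factor, at 0.138 and Spry2, an inhibitor of growth factor signaling, at 0.146. Exons of Dusp1 overlap those of Ergic1 on the opposite strand. Ergic1 was highest in cancer control, at 1641 against 390.8 to 607.0 normalized counts elsewhere, an order that Dusp1 did not share.

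The metallothioneins Mt1 and Mt2 encode small cysteine-rich proteins that bind zinc and copper and buffer oxidants, and glucocorticoids, metals and interleukin-6 all raise them. The genes lie in tandem, Mt2 at chr8:94172664-94173568 and Mt1 at chr8:94179082-94180327, both on the + strand with 5513 bases between them. Mt2 stood at 576.2 in normal control, 2378 in normal exercise, 122294 in cancer control and 23591 in cancer exercise. Mt1 stood at 1504, 2262, 59227 and 30235 in the same order. Both were highest in resting tumor-bearing lung, where Mt2 ranked 2 and Mt1 ranked 9 among all rows by level and together they took 1.77% of the reads, against 0.0188% in normal control.

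The tumor difference without exercise was 7.73 for Mt2 (7.62 to 7.84), a 212-fold excess that ranked 20 among the rises of all 15164 genes. For Mt1 it was 5.30 (5.23 to 5.37), a 39.3-fold excess. With exercise, the tumor differences were 3.31 (3.25 to 3.37) and 3.74 (3.68 to 3.80). Exercised tumor-bearing lung held 19.3% of the resting tumor level of Mt2 and 51.1% of that of Mt1, at -2.37 (-2.40 to -2.35) and -0.97 (-0.99 to -0.95). The Mt1 difference passed 2-fold, at -1.06, with totals without hemoglobin and, at -1.58, with library totals alone.

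Without tumor, Mt2 was 4.12-fold higher in exercised than in resting lung, at 2.04 (1.92 to 2.17), and Mt1 was higher by 0.59 (0.50 to 0.68). These excesses over normal control were 1.47% of the cancer control level for Mt2 and 1.28% for Mt1, inside the 0.642% to 2.18% of the 9 genes absent from normal control. With the 1.47% share taken out, Mt2 in normal exercise was 581.3 and its difference 0.01, and Mt1 was 1392 and its difference -0.11. The tumor differences with exercise then became 5.34 for Mt2 and 4.44 for Mt1. For the other 6 members the excess was larger, from 4.97% of the cancer control level for Fkbp5 to 77.5% for Zbtb16, and with the share taken out their differences were 0.55 for Fkbp5, 0.79 for Tsc22d3, 0.29 for Zbtb16, 0.73 for Klf9, 0.47 for Sgk1 and 0.61 for Dusp1.

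**Figure D2:**
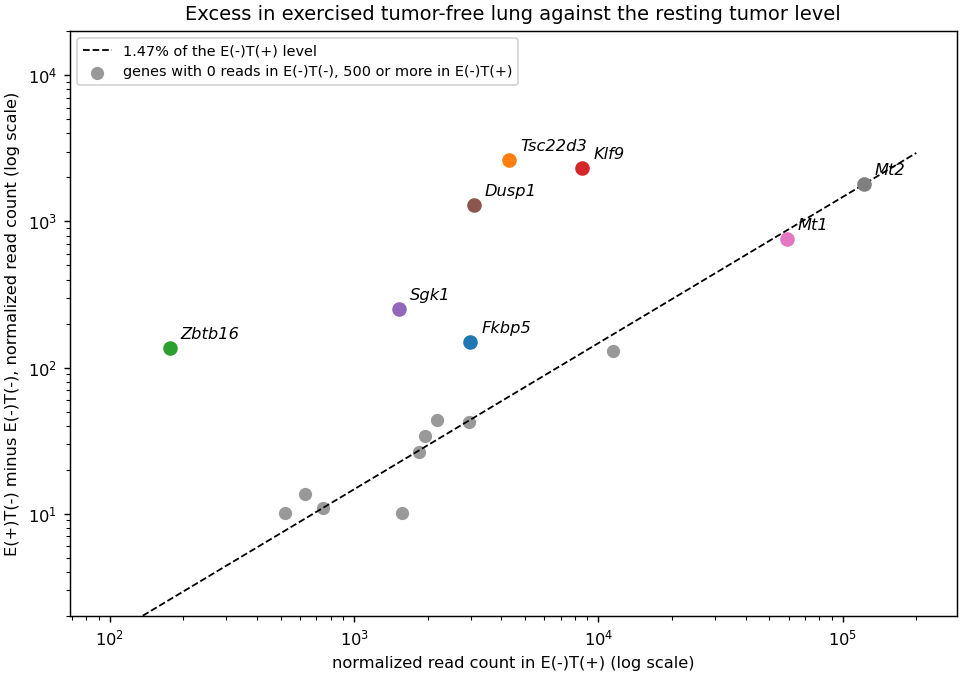
Excess of exercised over resting tumor-free lung, in normalized read counts on a log scale, against the level in E(-)T(+), also on a log scale. Mt1 and Mt2 lie by the dashed line at 1.47% together with the 9 grey genes that had 0 reads in E(-)T(-), and the other 6 members lie above it.

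The balance of the pair shifted as well. Mt2 made up 27.7% of Mt1 and Mt2 reads in normal control (95% exact binomial interval 25.9 to 29.5), 51.3% in normal exercise (49.9 to 52.6), 67.4% in cancer control (67.2 to 67.6) and 43.8% in cancer exercise (43.4 to 44.3). No interval overlapped another. With the 1.47% share taken out, the normal exercise value was 29.5%. These are shares of 3′ tags, not corrected for how well each transcript primes, and Mt2 exons overlap an antisense transcript, Gm45774, which has no row of its own. Among the genes with a profile near that of Mt2 was Kcnu1, a potassium channel, at 0.338. Nearest to Mt1 were Ccl2, a monocyte chemokine, at 0.247 and Fgb, a fibrinogen chain, at 0.269. At this floor of 50, these distances are larger than those to the neighbours of the other 6 members. At a floor of 200 the nearest gene to Mt1 was Timp1 at 0.498.

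**Figure D3:**
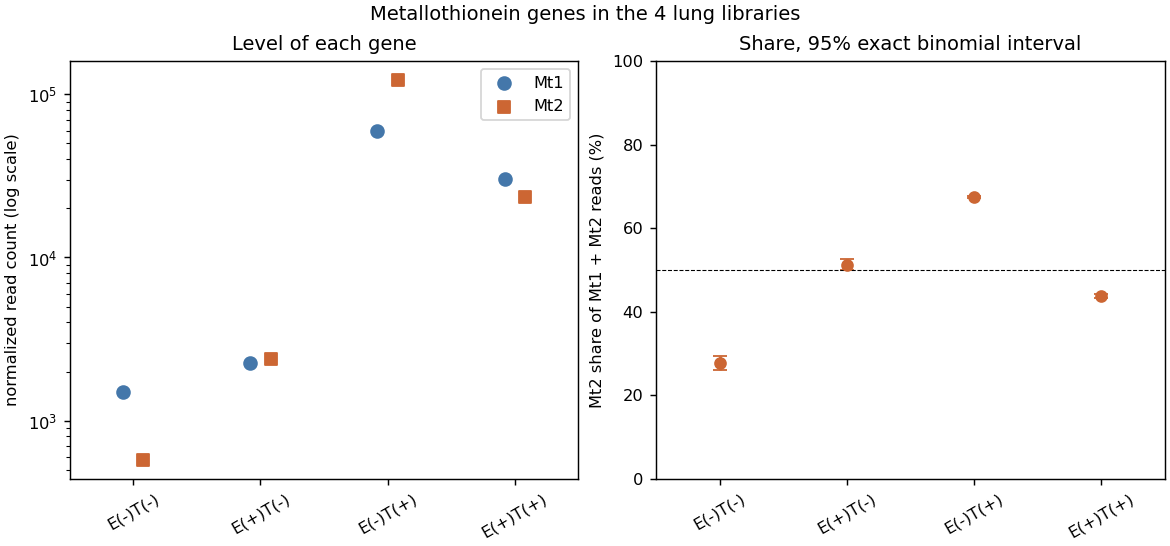
Left, normalized read count of Mt1 and Mt2 on a log scale in each library. Right, Mt2 reads as a percentage of Mt1 and Mt2 reads with 95% exact binomial intervals, from 27.7% in E(-)T(-) to 67.4% in E(-)T(+).

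Across the 8 members, the differences had their narrowest range with exercise without tumor, from 0.30 to 2.04. The central 90% of all genes was also narrowest there, from -0.97 to 1.04. All 8 members were higher in normal exercise than in normal control, where 50% of all genes were higher. All 8 counting intervals lay above 0, as for 22.5% of all genes. These shares are not matched for depth, since an interval narrows as reads rise. The members had 262 to 6706 reads in these libraries, while all genes include rows down to a mean normalized count of 4. Only Mt2 passed 2-fold, 1 of 8, against 9.98% of all genes in either direction and 5.28% higher. The members' median difference was 0.68, and that of all genes was 0.00. With the cancer control share taken out, no member passed 2-fold and 7 of 8 stayed above 0, the exception being Mt1.

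In the tumor comparison without exercise, 6 of 8 members passed 2-fold against 46.2% of all genes, 5 higher (Fkbp5, Klf9, Sgk1, Mt1 and Mt2) against 20.6% and 1 lower (Zbtb16) against 25.7%. The median was 1.36 for the members and -0.03 for all genes. In the exercise comparison with tumor, 5 of 8 passed against 42% of all genes, 3 higher (Zbtb16, Sgk1 and Dusp1) against 24.3% and 2 lower (Fkbp5 and Mt2) against 17.7%. This balance depended on the scaling, with 1 member higher and 3 lower with library totals alone, where 51.8% of all genes passed, and 3 higher and 3 lower with totals without hemoglobin. Mt1, at -0.97, lay just under 2-fold. The members split, and their median was -0.01 beside 0.01 for all genes. In the tumor comparison with exercise, 3 of 8 passed (Sgk1, Mt1 and Mt2), all higher, against 27.8% of all genes in either direction and 14.9% higher. Fkbp5, Klf9 and Dusp1 lay just under 2-fold there, and the median was 0.97 for the members and 0.00 for all genes. With library totals alone Tsc22d3 also passed there, lower, at -1.30. With the cancer control share taken out of normal exercise, Fkbp5 passed at 1.16. The comparisons share libraries in pairs, so they are not independent of each other.

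**Figure D4:**
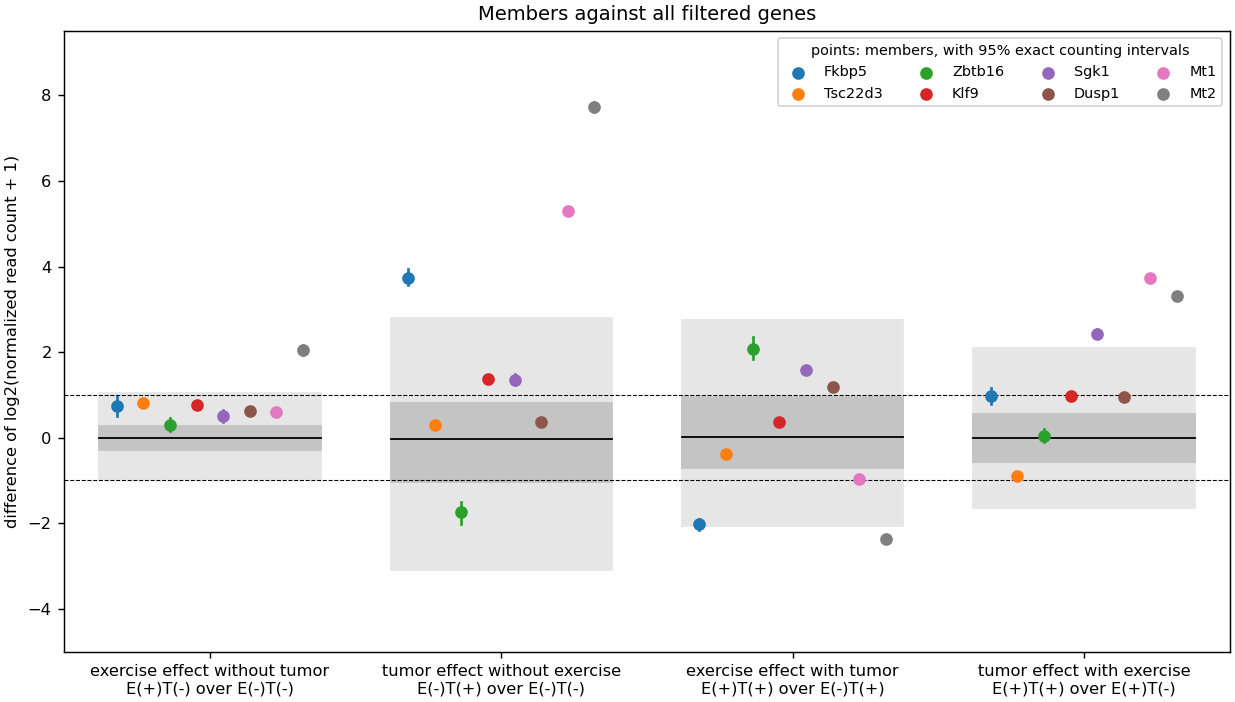
Log2 difference of each member in the 4 comparisons, with 95% exact counting intervals, over the central 50% (dark) and 90% (light) of all 15164 filtered genes. Dashed lines mark 2-fold. The members lie close together in the first comparison and spread widely in the others, and the bands of all genes are narrowest in the first as well.

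The size of the exercise difference with tumor minus that without it sorted the members. It was negative for Mt2 (-4.42), Fkbp5 (-2.76), Mt1 (-1.56), Tsc22d3 (-1.18) and Klf9 (-0.40) and positive for Zbtb16 (1.78), Sgk1 (1.07) and Dusp1 (0.57). With the cancer control share taken out of normal exercise, the value was -2.39 for Mt2, -0.86 for Mt1 and -2.58 for Fkbp5, and every member kept its sign. With library totals alone it was 0.04 for Dusp1, 0.55 for Sgk1 and -0.92 for Klf9. Between members, the profiles of Dusp1 and Klf9 were nearest, at a distance of 0.778, and those of Zbtb16 and Mt2 farthest, at 7.21. Mt1 and Mt2 stood 1.74 apart. With 1 library per group these interactions carry no residual spread and were not tested.

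The strength of the hormone signal in a cell depends on its receptor and on enzymes that make or break down the hormone locally. The receptor gene Nr3c1 stood at 1506, 1199, 865.5 and 693.6 normalized counts in the 4 libraries. It was lower with tumor, by 0.80 (0.68 to 0.92) without exercise and by 0.79 (0.65 to 0.93) with it, and passed 2-fold in neither. Hsd11b1, which regenerates active corticosterone inside cells, stood at 1571, 1431, 273.0 and 1673. It was low in resting tumor-bearing lung alone, by 2.52 (2.33 to 2.72) against normal control, as Zbtb16 was. Hsd11b2, which inactivates the hormone, was rare, with 6, 22, 0 and 40 reads, and the mineralocorticoid receptor gene Nr3c2 is listed at 0 in all libraries.

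Over all genes, the shares 2-fold or more higher and lower were 5.28% and 4.7% for exercise without tumor, 20.6% and 25.7% for tumor without exercise, 24.3% and 17.7% for exercise with tumor, and 14.9% and 13% for tumor with exercise, and the lists of pathway genes are given against these. Library totals alone moved the all-gene median to -0.59 for exercise with tumor and -0.41 for tumor with exercise, so that small positive list medians there depend on the scaling. With the cancer control share taken out of normal exercise, the counts of the receptor, induced, inflammatory and metal handling lists did not change. Of the 15 measured genes of receptor and ligand control, 5 were 2-fold or more higher and 0 lower with exercise without tumor, among them the receptor chaperones Hsp90aa1 (1.81), Hsp90ab1 (1.33), Stip1 (1.04) and Fkbp4 (1.02). With tumor and no exercise 1 was higher and 2 lower, with exercise in tumor-bearing lung 2 higher and 1 lower, and in the tumor comparison with exercise 1 higher and 4 lower. The list medians were 0.09, -0.31, -0.05 and -0.27 in that order. The 4 chaperone genes were also those lower in the last comparison, from -1.97 for Hsp90aa1 to -1.14 for Stip1.

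Among 28 other genes that glucocorticoids raise, 6 were higher and 1 lower with exercise without tumor, with a list median of -0.07. The counts were 15 and 7 in the tumor comparison without exercise (median 1.05), 14 and 4 for exercise with tumor (0.86), and 13 and 2 for tumor with exercise (0.94). Ddit4, an inhibitor of mTOR signaling, stood at 430.7, 1256, 3035 and 6173 normalized counts in the 4 libraries, the order of Sgk1. Il1r2, the interleukin-1 decoy receptor, ran from 13.5 to 77.1, 406.6 and 4296 in the same order, and neutrophils carry it too. Cd163, a scavenger receptor of macrophages, was higher by 3.27 in the tumor comparison without exercise. Cdkn1c, a cell cycle inhibitor, shared the low level in resting tumor-bearing lung at 167.8 against 822.1 to 1148 elsewhere, and Slc19a2, a thiamine carrier, was high there alone at 266.1 against 23.5 to 42.4.

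Among 15 measured inflammatory genes that glucocorticoids lower, 3 were higher and 3 lower with exercise without tumor (median 0.00), 8 and 3 in the tumor comparison without exercise (1.17), 9 and 1 for exercise with tumor (1.44), and 11 and 1 for tumor with exercise (2.42). Tnf, Il1b, Il6, Ccl3, Ccl4, Cxcl2, Cxcl10 and Mmp9 passed 2-fold higher in both comparisons that end in cancer exercise. Of these, Tnf, Il6, Ccl3 and Ccl4 had at most 50 reads in any library. Both comparisons share the cancer exercise library, and the share of all genes past 2-fold in both was not counted. Sgk1, Dusp1, Klf9 and Zbtb16 were highest in that library, Zbtb16 by a margin over normal exercise whose counting interval spans 0. The interleukin Il1b stood at 285.4, 723.1, 152.4 and 1937, highest in cancer exercise. Ccl2 stood at 5.8, 7.3, 262.7 and 121.5, and its excess in the tumor comparison without exercise was 5.27 (4.40 to 6.80). Icam1, an adhesion molecule of endothelium, was lower by 2.33 there and higher by 2.46 with exercise in tumor-bearing lung.

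Among 9 measured metal handling genes outside the members, 1 was higher and 1 lower with exercise without tumor, 3 and 2 in the tumor comparison without exercise, 3 and 2 for exercise with tumor, and 4 and 0 for tumor with exercise, with medians of 0.20, 0.64, 0.07 and 0.23. Slc39a14, a zinc importer of the acute phase, stood at 19.4, 23.8, 182.7 and 28.2, and so was high, as Mt2 was, in resting tumor-bearing lung. Slc30a1, a zinc exporter controlled by the same metal-responsive factor as the metallothioneins, was lower there, by 2.19 against normal control, and higher by 2.16 with exercise in tumor-bearing lung. Hmox1, the inducible heme oxygenase, stood at 23.7, 72.5, 208.1 and 218.5. Mt4, a metallothionein of stratified epithelia, had 0 reads in both tumor-free libraries, 148 in cancer control and 10 in cancer exercise, and it is named here after its values were seen.

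**Figure D5:**
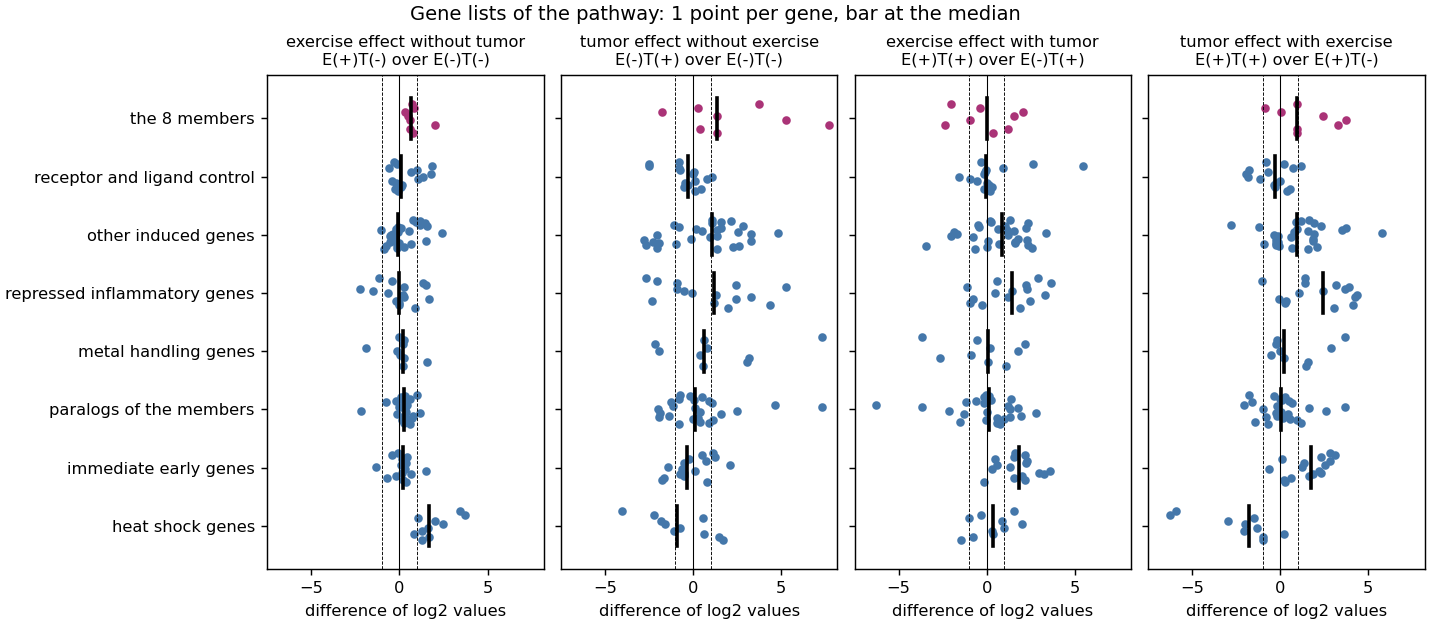
Log2 differences of the 8 members (top) and of the genes of 7 lists in the 4 comparisons, 1 point per gene with a bar at the median and dashed lines at 2-fold. Heat shock genes lie highest with exercise without tumor, and immediate early genes lie higher in both comparisons that end in E(+)T(+).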

How the data were processed

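The authors made 3′ tag libraries (Lexogen QuantSeq), aligned the reads with Bowtie2, counted them with bedtools and normalized the counts by the quantile method of edgeR. The submitters' processing notes name mm10, while versions, gene models and the use of strand are not given in the sources used here, so overlapping genes may share reads. The deposited values are log2(normalized read count + 1) at 3 decimals. Whole reads were recovered by inverting the quantile adjustment in R 4.3.3 (dispersion 0.372), a step tested on simulated data. The recovered reads gave back 100% of the values within 0.001, and 94.6% of values were resolved to 1 read. The scaling factors were 1.086, 1.023, 1.172 and 0.768 for the libraries in the order of groups above. Differences of log2 values, called at 2-fold, were computed in Python 3.11.15. Exact (Clopper-Pearson) intervals at 95% used scipy 1.17.1.

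The members and the 7 gene lists and 11 marker lists were chosen with earlier results of these data known. Named genes were all members, up to 4 genes per list and comparison with the largest differences past 2-fold with a mean of 50 or more normalized counts, Nr3c1, Hsd11b1 and Hsd11b2, and the 2 genes nearest each member among 11208 rows, of which some are not reported here. Alternatives were 3 scalings, a pseudocount of 4 and other filters. Gene positions came from GENCODE M21.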

Additional observations from a re-analysis of the deposited data

Results flagged for a closer look

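Members that moved in opposite directions under the same contrast, with both counting intervals clear of 0, were Fkbp5, Mt1, Mt2 and Tsc22d3. With exercise, the log2 difference without tumor and with tumor was 0.735 and -2.027 for Fkbp5, 0.588 and -0.970 for Mt1, 2.043 and -2.374 for Mt2, and 0.802 and -0.379 for Tsc22d3. With tumor, Tsc22d3 differed by 0.290 without exercise and by -0.891 with it. Each rests on 1 library per group, and the difference between the directions was not tested. For Mt1 and Mt2 the positive value became -0.11 and 0.01 without a 1.47% share of the cancer control level in normal exercise, so these pairs hold no clear opposite move under that alternative.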

How the results depend on the processing

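No paired analysis was possible because each group has 1 library. Among the 8 members, the count past 2-fold was within 1.5 times its value under every scaling and pseudocount, at 1 for exercise without tumor, 6 for tumor without exercise, 4 to 6 for exercise with tumor and 3 to 4 for tumor with exercise. The exception was added after seeing the data. With a 1.47% share of the cancer control level taken out of normal exercise, the count for exercise without tumor fell to 0, because Mt2 came to 0.01, and that for tumor with exercise rose to 4 as Fkbp5 came to 1.16. Of all lists, this took the dividing-cell genes past 2-fold for exercise without tumor from 4 to 1, changed the colorectal (2 to 1 higher) and macrophage (1 to 2 lower) counts there and the heat shock count for tumor with exercise (8 to 7 lower), and left the other counts as they were. For exercise with tumor, members higher and lower were 3 and 2, but 1 and 3 with library totals alone and 3 and 3 with totals without hemoglobin. At a floor of 200 in place of 50, 8 of the 16 nearest genes were kept. Library totals alone turned the sign of Klf9 for exercise with tumor, to -0.24, and of Zbtb16 for tumor with exercise, to -0.37. Totals without hemoglobin gave 0.28 and -0.05 for these values, and the cause was not tested. The count over all genes followed the filter, since fewer genes were tested. At a mean of at least 100 it was 200 for exercise without tumor, 3601 for tumor without exercise, 3171 for exercise with tumor and 1686 for tumor with exercise, in place of 1513, 7011, 6371 and 4223. With no filter it was 2606 for exercise without tumor. Depth limits Hsd11b2 and Mt4, which had few reads, while the members had between 160 and 111609 reads per library.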

Other observations

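Stress genes and relatives of the members were counted in the same way. Over all genes, 5.28% were higher and 4.7% lower for exercise without tumor, and 20.6% and 25.7% for tumor without exercise. The shares were 24.3% and 17.7% for exercise with tumor, and 14.9% and 13% for tumor with exercise. Of 10 heat shock genes, 9 were 2-fold or more higher and 0 lower with exercise without tumor, at a median log2 difference of 1.65, led by Hspa1b (3.74) and Hspa1a (3.44). In the other comparisons 2 were higher and 5 lower for tumor without exercise (median -0.91), 3 and 2 for exercise with tumor (0.36), and 0 and 8 for tumor with exercise (-1.76). Of 16 immediate early genes, 12 were higher and 0 lower with exercise in tumor-bearing lung (median 1.82), led by Atf3 (3.58), and 11 and 0 for tumor with exercise (1.76). They were 1 and 1 for exercise without tumor (0.17) and 3 and 3 for tumor without exercise (-0.36).

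Of 25 measured paralogs of the members, 2 were higher and 1 lower for exercise without tumor, 6 and 6 for tumor without exercise, 7 and 6 for exercise with tumor, and 4 and 4 for tumor with exercise, with medians of 0.28, 0.13, 0.15 and 0.06. These counts lay near the shares over all genes. The phosphatase gene Dusp8 differed by 2.79 and Dusp16 by 1.97 for exercise with tumor. Klf10 differed there by -1.50.

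The remaining marker lists summed, in the 4 libraries, to 45357, 45098, 38639 and 38256 normalized counts for fibroblast and smooth muscle genes and 7389, 6209, 11929 and 15203 for macrophage genes. T cell genes summed to 745, 693, 118 and 577, and B cell genes to 935, 893, 32 and 275, with Cd79a, Ms4a1, Pax5 and Blk among those at 0 reads in cancer control. Erythroid genes summed to 1589519, 1667911, 146925 and 4931053 and adipocyte genes to 4053, 1733, 6840 and 1125. The adipocyte sum in cancer control came mostly from Fabp4, at 6255 and also a macrophage marker, while 5 of 7 measured adipocyte genes were 2-fold or more lower there than in normal control. Colorectal epithelial genes summed to 3739, 3703, 4476 and 8260, with Cdx2 and Lgals4 at 0 reads in all libraries. In cancer control 2954 of the sum was Krt20, and 3 of 6 measured genes of that list were 2-fold or more lower than in normal control against 1 higher.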
